A study of Mus musculus with 18 samples.

Results

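The mRNA levels of 7 chemokine receptors, Cx3cr1, Ccr1, Ccr2, Ccr3, Ccr7, Ccrl2 and Cxcr4, were examined in mouse bone marrow-derived macrophages (BMM) that lack the nuclear receptor Nur77 and in wild-type (WT) BMM. The receptors were chosen by gene symbol, and all 7 have at least 1 probe among the 19057 genes that the arrays measure with a probe of a single symbol. Ccr2 has 2 probes, of which the one with the higher mean was used. Of the 7 receptors, 5 were detected on at least 1 array and entered the tests, together with all other detected genes (12417 in total). Detection means that the probe's detection p-value on that array was below 0.05.

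BMM from Nur77-KO and WT mice, both on a C57BL/6 background, were grown from marrow in L929-conditioned medium and profiled on Illumina MouseWG-6 v2 arrays. The 6 groups, with 3 arrays each, were Nur77-KO and WT BMM given LPS (100 ng/ml, 8 h), Nur77-KO and WT BMM given IL-4 (50 ng/ml, 8 h), and unstimulated Nur77-KO and WT BMM. LPS, a bacterial cell wall component, drives inflammatory activation of macrophages, and IL-4 drives alternative activation. The unstimulated arrays are labelled 0 h, so a response to LPS or IL-4 includes any change over 8 h of culture. Marrow came in batches from several mice of each genotype, but the labels do not tie arrays to mice or batches, so the p-values cover the spread among arrays and no more. The knockout is not limited to macrophages, and Nr4a1, the gene of Nur77, was not detected on any of the 18 arrays, so its probe does not check the labels.

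Chemokine receptors are serpentine membrane proteins that couple to inhibitory G proteins and steer leukocytes along gradients of chemokines. Cx3cr1 binds fractalkine (Cx3cl1) and is a hallmark of patrolling monocytes and of some resident macrophages. Cxcr4 binds Cxcl12 and holds haematopoietic cells in the bone marrow. Ccr2 brings inflammatory monocytes out of the marrow, Ccr1 and Ccr3 are receptors for shared sets of inflammatory CC chemokines, and Ccr7 guides dendritic cells and lymphocytes to lymph nodes. Ccrl2 is an atypical receptor that binds chemerin (Rarres2) and presents it to other cells without signalling of its own.

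Promoter sequences from RefSeq (GRCm38.p6) matched 6 of the 7 receptors, Ccr7 not being in the table. The 250 bases before the start site are shown for Cx3cr1, Cxcr4 and Ccrl2, because the results turn on these 3 receptors. They lie on the minus strand at chr9:120068297-120068546 for Cx3cr1, chr1:128592300-128592549 for Cxcr4 and chr9:111057519-111057768 for Ccrl2 (the most upstream of 3 annotated starts). Capitals mark a match to a motif searched on both strands, and sequences run 5′ to 3′.
Cx3cr1: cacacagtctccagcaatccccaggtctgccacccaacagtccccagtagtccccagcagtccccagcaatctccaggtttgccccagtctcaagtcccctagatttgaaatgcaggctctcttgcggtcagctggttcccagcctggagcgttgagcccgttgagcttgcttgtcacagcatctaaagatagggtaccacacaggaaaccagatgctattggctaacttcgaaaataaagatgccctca
Cxcr4: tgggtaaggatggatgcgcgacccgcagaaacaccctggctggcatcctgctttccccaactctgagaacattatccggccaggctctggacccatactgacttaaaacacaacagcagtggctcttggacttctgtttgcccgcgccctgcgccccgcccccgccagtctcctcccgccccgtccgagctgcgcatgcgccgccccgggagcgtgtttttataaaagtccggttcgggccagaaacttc
Ccrl2: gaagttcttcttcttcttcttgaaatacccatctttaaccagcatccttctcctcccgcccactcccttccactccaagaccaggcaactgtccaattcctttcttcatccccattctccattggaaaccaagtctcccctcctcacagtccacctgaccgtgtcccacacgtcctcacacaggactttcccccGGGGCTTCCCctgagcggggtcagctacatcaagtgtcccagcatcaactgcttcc
The motifs searched were the NBRE bound by Nur77 (AAAGGTCA), the NF-kB consensus, the STAT6 motif (TTC and GAA with 4 bases between them) and the AP-1 motif (TGANTCA). Windows of the same length before 32851 RefSeq starts held the NBRE in 1.34%, the NF-kB consensus in 7.25%, the STAT6 motif in 5.85% and the AP-1 motif in 6.75%. The Ccrl2 window held 1 NF-kB match, at positions -56 to -47 from the start, which reads as a match on both strands. The Cx3cr1 and Cxcr4 windows held no match to these 4 motifs, and neither did the windows of the other 2 Ccrl2 starts. Among the other receptors, the NF-kB consensus was also found before Ccr1 and Ccr3, and the AP-1 motif before Ccr3. These are matches of letters, and binding was not measured in these data.

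On 4 arrays a set of genes stood apart from the other replicates of the same label. Replicate 1 of Nur77-KO BMM with LPS and replicate 1 of Nur77-KO BMM with IL-4 lacked signal of the Y-linked gene Eif2s3y (4.53 and 4.59 on the log2 scale), while the 7 remaining Nur77-KO arrays read 8.91 to 9.68. All WT arrays read 4.45 to 4.76 for Eif2s3y, so outside those 2 arrays the Y-linked signal goes with the genotype and cannot be told apart from it. Xist, another sex-linked gene, was detected on all 18 arrays. Without stimulation it read 9.54 to 9.89 in Nur77-KO BMM, against 10.70 to 11.23 in WT BMM. The part of the sex of the mice in the genotype differences was not tested. The 2 Nur77-KO arrays without Eif2s3y signal were among 4 arrays that lay farthest from their group means over all genes. The others were replicate 1 of WT BMM with IL-4 and replicate 3 of WT BMM with LPS. All 4 also had the lowest collagen Col1a1 of their groups. For the receptors tested, each result below that uses these 4 arrays is also given without them where that changes its call. Calls of other single genes were made with these arrays included and were not checked without them. The stimulation labels could be checked: the summed intensity of 5 LPS-induced genes was 58933 to 73513 with LPS, against 157 to 236 without stimulation. Arg1, which IL-4 induces, read 11.46 to 13.54 in Nur77-KO BMM and 11.50 to 13.64 in WT cells with IL-4, and no other array detected it. Retnla, also induced by IL-4, read 9.75 to 10.15 in Nur77-KO BMM and 10.31 to 12.05 in WT cells with IL-4. On the other arrays Retnla read at most 5.79. The macrophage markers were detected on every array, 7 of 7 with a probe.

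Cx3cr1 mRNA was detected in unstimulated BMM only, on all 6 of those arrays and on none of the 12 stimulated ones. It was lower in unstimulated Nur77-KO BMM, at log2 values of 6.13, 5.77 and 5.70, against 8.31, 8.40 and 8.17 in unstimulated WT BMM. The groups did not overlap, and the lowest WT array lay more than 2 log2 units above the highest Nur77-KO array. The fitted difference was -2.43 log2 units (SE 0.22, 95% interval -2.89 to -1.96), a 5.37-fold lower level (limma, Benjamini-Hochberg adjusted p = 0.000112). Without background correction the difference was -1.20 log2 units, still called (adjusted p = 1.07e-05). Cx3cr1 had the smallest p of all genes tested. It was the only receptor called of the 5 tested, where 0.105% of all genes tested were called. The receptors were chosen with earlier results of these data known, so this count is no test of the set. Both slides that held unstimulated arrays of both genotypes showed the lower Cx3cr1 level, with differences of -2.27 and -2.46.

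Other markers also moved with the genotype in unstimulated cells. The summed intensity of 7 neutrophil markers was 3759 to 5200 on Nur77-KO arrays, against 811 to 1261 on WT arrays, with all 7 genes above 0 in the fit (median 1.08) and none called. All 7 were detected on every unstimulated Nur77-KO array, while on the unstimulated WT arrays 3 were detected on all and 3 on none. The summed intensity of 7 stromal genes, among them Col1a1 and Dcn, was 2571 to 2999 on Nur77-KO arrays, against 730 to 883 on WT arrays, and 5 of the 7 were detected on all 3 Nur77-KO arrays and 4 on all 3 WT arrays. In the fit 6 of 6 stromal genes tested were above 0 (median 1.48), none called. The 7 macrophage markers summed to 50042 to 61255 on Nur77-KO arrays, against 58929 to 62067 on WT arrays, a sum that is mostly lysozyme (Lyz2). In the fit 2 of the 7 were above 0 (median -0.22, where the median of all genes was 0.00089) and none was called. The LPS co-receptor Cd14 read 10.89 to 11.02 on Nur77-KO arrays, against 11.78 to 12.05 on WT arrays. The integrin Itgam read 6.69 to 6.96 on Nur77-KO arrays, against 7.37 to 7.53 on WT arrays. Mertk went the other way, at 10.37 to 10.52 on Nur77-KO arrays, against 9.99 to 10.06 on WT arrays. The summed level of 6 other genes linked to patrolling monocytes was 251 to 315 on Nur77-KO arrays, against 295 to 346 on WT arrays. The 6 include the deleted gene Nr4a1, and neither Nr4a1 nor Ace was detected on any array. The 4 others were tested, 0 of them above 0 (median -0.22) and none called. The brightest of them without stimulation, Cd36, differed by -0.01. The 3 classical monocyte markers with a probe summed to 433 to 524 on Nur77-KO arrays, against 343 to 428 on WT arrays. Of these 2 were tested, both above 0 (median 0.44) and none called. The part of these cell types in the Cx3cr1 difference was not tested. In bulk RNA, fewer cells of a type and less RNA per cell cannot be told apart.

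With LPS, Cx3cr1 fell to background in both genotypes. The LPS arrays read 5.66, 4.74 and 4.83 in Nur77-KO BMM and 5.24, 5.37 and 4.84 in WT cells, none of them detected. Every one of these values was below the lowest unstimulated array of its own genotype. Because no stimulated array detected the probe, only a bound on the fold is available, taken from the lowest signal of any detected probe on each array. Here and below, an adjusted p beside a bound is that of the fitted limma difference. The bound itself was not tested. On that bound Cx3cr1 was at least 5.63-fold lower with LPS than without stimulation in WT BMM (adjusted p = 1.07e-08) and at least 1.16-fold lower in Nur77-KO BMM (adjusted p = 0.00935). The bound in Nur77-KO BMM is small because its unstimulated level already lay close to the detection limit. That call was lost without replicate 1 of the unstimulated Nur77-KO arrays (adjusted p = 0.0520) and without replicate 2 of the Nur77-KO LPS arrays (adjusted p = 0.0540). It was also lost after cyclic loess normalization (adjusted p = 0.0551) and with slide as a fixed block (adjusted p = 0.0610).

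With IL-4, Cx3cr1 was also at background, at 4.65, 4.72 and 4.71 in Nur77-KO BMM and 4.83, 4.66 and 4.39 in WT cells. These arrays lay below all unstimulated arrays of their genotype, and the spread among them was small. Cx3cr1 was at least 6.84-fold lower than in unstimulated cells in WT BMM (adjusted p = 4.56e-08) and at least 1.26-fold lower in Nur77-KO BMM (adjusted p = 0.00402). The bounds on Cx3cr1 also hold on the deposited scale, and without background correction the fitted changes in WT BMM were -1.42 with LPS and -1.69 with IL-4, both called. In Nur77-KO BMM they were -0.41 with IL-4, called, and -0.26 with LPS, not called (adjusted p = 0.0607). With either stimulus both genotypes were below detection, so no genotype difference of Cx3cr1 can be read there. A test of the change in genotype difference between states therefore sets the unstimulated difference against background. In it Cx3cr1 was the 1 receptor of 5 to pass with LPS, where 0.0161% of all genes passed, and with IL-4, where 0.00805% passed. Neither passed after median or cyclic loess normalization. With LPS it was also lost on leaving out any one of 6 arrays, all but 1 of them unstimulated, and with IL-4 on leaving out replicate 3 of the unstimulated Nur77-KO arrays.

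**Figure D1:**
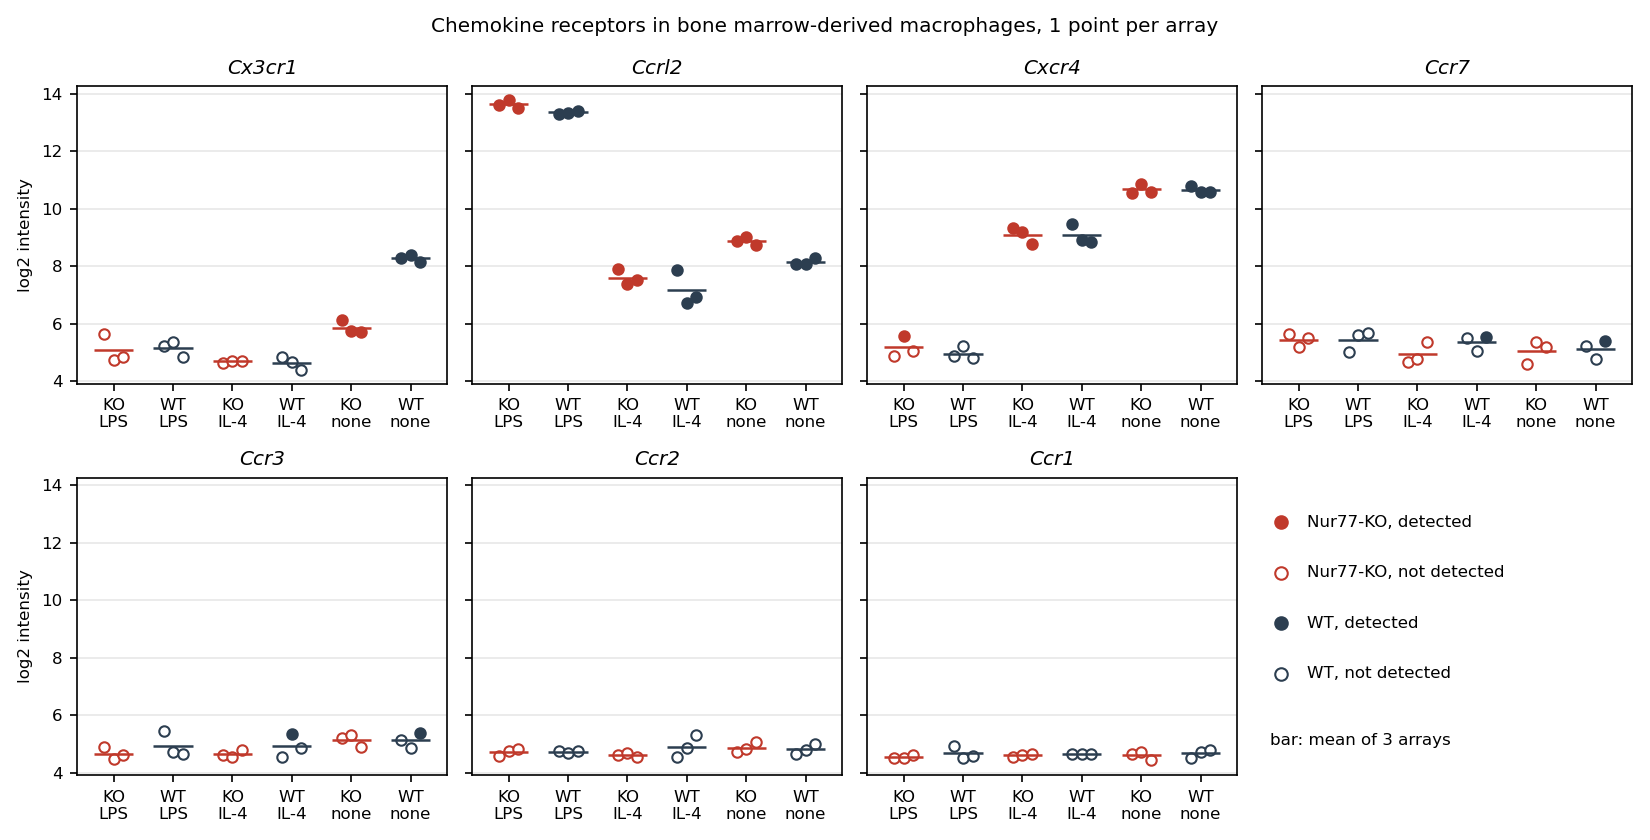
Log2 intensity of each receptor on each of the 18 arrays (vertical axis), with groups on the horizontal axis (Nur77-KO in red, WT in dark blue). Points are arrays, filled where the probe was detected, and bars are the means of 3 arrays. Cx3cr1 is detected on the 6 unstimulated arrays only, Ccrl2 on all 18 arrays, and Ccr1 and Ccr2 on none.

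Cxcr4 was high in unstimulated cells, intermediate with IL-4 and near background with LPS, and no difference between the genotypes was called. With LPS it read 4.87, 5.59 and 5.07 in Nur77-KO BMM and 4.88, 5.21 and 4.81 in WT cells. With IL-4 it read 9.32, 9.19 and 8.79 in Nur77-KO BMM and 9.46, 8.91 and 8.86 in WT cells. Without stimulation it read 10.55, 10.88 and 10.60 in Nur77-KO BMM and 10.78, 10.59 and 10.57 in WT cells. The 3 states did not overlap, whereas the genotypes overlapped in each state.

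In WT BMM, where no LPS array detected it, Cxcr4 was at least 28.8-fold lower with LPS than without stimulation (adjusted p = 9.73e-12). In Nur77-KO BMM, where 1 of 3 LPS arrays detected it, the bound was at least 32.5-fold (adjusted p = 1.67e-11). These bounds hold on the deposited scale, and without background correction the fitted changes were -3.39 in Nur77-KO BMM and -3.43 in WT cells, both called. IL-4 lowered Cxcr4 by a smaller amount, with a log2 fold change of -1.57 in Nur77-KO BMM (adjusted p = 0.000226) and -1.57 in WT BMM (adjusted p = 0.000221). The WT call was lost after median normalization (adjusted p = 0.0525). Between the stimuli, Cxcr4 was lower with LPS than with IL-4, at least 10.9-fold in Nur77-KO BMM (adjusted p = 6.64e-10) and at least 9.73-fold in WT BMM (adjusted p = 3.63e-10). The genotype difference was 0.03 without stimulation (95% interval -0.42 to 0.48), 0.02 with IL-4 (-0.43 to 0.48) and 0.21 with LPS (-0.24 to 0.66), the last near background, and none was called.

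Ccrl2 was the receptor that rose with LPS. It read 13.63, 13.80 and 13.53 in Nur77-KO BMM with LPS, against 8.90, 9.03 and 8.75 in unstimulated Nur77-KO BMM. In WT BMM it read 13.31, 13.35 and 13.40 with LPS, against 8.10, 8.07 and 8.30 without stimulation. The LPS arrays lay more than 4 log2 units above all unstimulated arrays of their genotype, and their replicates were close together. This was a log2 fold change of 4.76 in Nur77-KO BMM (SE 0.23, adjusted p = 1.67e-10), or 27.1-fold. In WT BMM it was 5.20 (SE 0.23, adjusted p = 6.23e-11), or 36.8-fold. The difference between these 2 responses was -0.44 (95% interval -1.13 to 0.25, adjusted p = 1.00) and was not called. No slide held LPS and unstimulated arrays of the same genotype, so no within-slide value of the LPS response could be had.

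IL-4 moved Ccrl2 the other way. With IL-4 it read 7.91, 7.37 and 7.51 in Nur77-KO BMM and 7.87, 6.72 and 6.94 in WT cells, below all unstimulated arrays of the same genotype. Relative to unstimulated cells Ccrl2 changed by -1.29 in Nur77-KO BMM (SE 0.23, adjusted p = 0.00253) and by -0.97 in WT macrophages (SE 0.23, adjusted p = 0.0161), both on the log2 scale. In both genotypes replicate 1 read highest, and on those 2 arrays the chemokine Ccl5 was at 11.1 and 12.2, against 5.50 to 7.17 on the other 4 IL-4 arrays. The part of whatever sets these arrays apart was not tested. Without the 4 arrays named above, the changes were -1.45 in Nur77-KO BMM and -1.32 in WT cells, both called. In WT BMM the call was lost without replicate 2 (adjusted p = 0.0746) or replicate 3 (adjusted p = 0.0759) of the IL-4 arrays, or without replicate 3 of the unstimulated arrays (adjusted p = 0.0685). The WT call was also lost after median normalization (adjusted p = 0.379) and with slide as a fixed block (adjusted p = 0.0879). Restricting the model to the IL-4 and unstimulated WT arrays lost it too (adjusted p = 0.167). In Nur77-KO BMM the call was lost with slide as a fixed block (adjusted p = 0.0614). Of 35 alternatives, 34 kept the Nur77-KO call and 29 kept the WT call. Within slides the WT difference was -0.23 on one slide and -1.57 on the other.

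In unstimulated cells Ccrl2 read higher on the Nur77-KO arrays, but the genotype difference did not pass the test. The Nur77-KO arrays (8.75 to 9.03) all lay above the WT arrays (8.07 to 8.30). The log2 difference was 0.74 (SE 0.23, 95% interval 0.25 to 1.23, adjusted p = 0.461 by limma). How many of all genes separate the groups in this way was not counted. The neutrophil and stromal markers given above moved with the same groups. With LPS the difference was 0.30 (-0.19 to 0.79) and with IL-4 it was 0.42 (-0.07 to 0.91), neither called. In a fit of the 6 unstimulated arrays by themselves the adjusted p was 0.0336, where 2.18% of all genes were called, and without the 4 arrays named above it was 0.00466, where 4.12% of all genes were called. At the thresholds of the study's methods (unadjusted p under 0.05 and a fold of 1.4) Ccrl2 passed as well, where 3.56% of all genes passed.

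**Figure D2:**
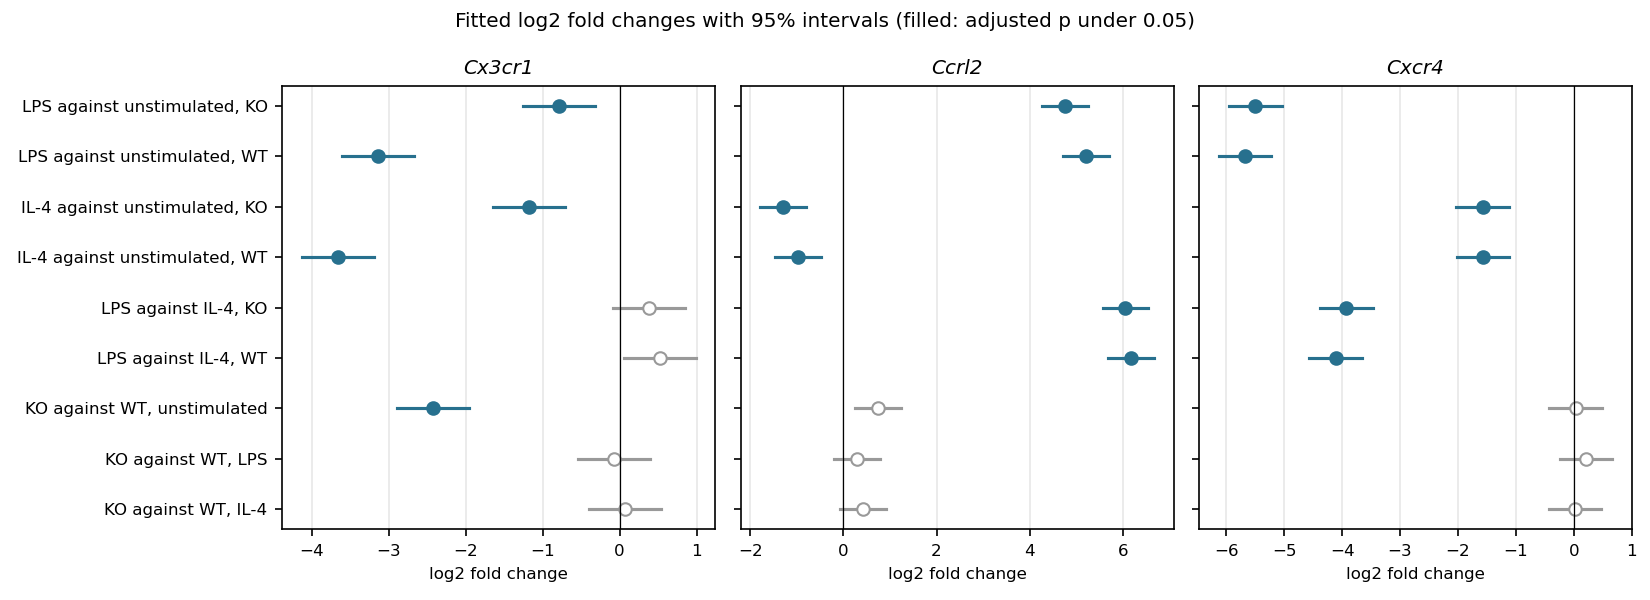
Log2 fold changes of Cx3cr1, Ccrl2 and Cxcr4 (horizontal axis) in 9 comparisons (rows), with 95% intervals from the fit over 18 arrays. Filled points were called at an adjusted p under 0.05. Ccrl2 rises by 4.76 in Nur77-KO BMM and 5.20 in WT cells with LPS, Cxcr4 is lower with LPS and with IL-4 in both genotypes, and Cx3cr1 is the receptor called between the genotypes, at -2.43 in unstimulated cells. Where a group did not detect a probe on all its arrays, the fitted value is no measure of size and the text gives a bound.

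Counted over the 5 receptors tested, 3 were called with LPS in each genotype, 1 higher and 2 lower, where 37.8% of all genes tested were called in Nur77-KO BMM and 39.8% in WT cells. With IL-4, 3 were called in each genotype, all lower. Of all genes, 5.55% were called in Nur77-KO BMM (2.42% lower) and 6.76% in WT BMM (3.08% lower). Between LPS and IL-4, 2 were called in each genotype, Ccrl2 and Cxcr4, where 36.8% of all genes were called in Nur77-KO BMM and 38.4% in WT cells. Between the genotypes no receptor was called with LPS, where 0.193% of all genes were called, and none with IL-4, where 0.0403% were called. At an unadjusted p under 0.05, the counts over all genes were 1040 and 587, and no receptor was among them.

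Ccr1, Ccr2, Ccr3 and Ccr7 stayed at or near background. Ccr1 was detected on 0 of 18 arrays (4.46 to 4.95), and so were both Ccr2 probes (4.55 to 5.32 and 4.52 to 4.98). Ccr3 was detected on 2 arrays, replicate 2 of WT BMM with IL-4 and replicate 3 of unstimulated WT BMM. Ccr7 was also detected on 2 arrays, replicate 3 of WT BMM with IL-4 and replicate 3 of unstimulated WT BMM. Neither Ccr3 nor Ccr7 was called in any comparison, and their arrays read 4.50 to 5.45 and 4.62 to 5.69. With LPS, Ccr7 read 5.20 to 5.63 in Nur77-KO BMM and 5.02 to 5.69 in WT BMM, against 4.62 to 5.35 in unstimulated Nur77-KO BMM and 4.77 to 5.42 in unstimulated WT BMM. These groups overlapped. A probe that was not well above background gives no evidence that the mRNA was absent.

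Of 20 other chemokine receptors and relatives, 18 have a probe and 6 were detected on at least 1 array. Cxcr3, a receptor best known from T cells, was detected on all 18 arrays and ranged from 6.05 to 7.62. The 3 T and NK cell markers with a probe summed to 74.5 to 146 on all arrays, and none of them was detected on all arrays of any group. Gpr1, a chemerin receptor, was detected on 17 arrays, while Ackr4, Ccr4, Ccr6 and Cxcr5 were detected on 1 to 5 arrays. With LPS against no stimulation 1 of the 6 was called in Nur77-KO BMM and 0 in WT cells. That was Ackr4, a scavenger of homeostatic chemokines, which read 4.65 to 4.71 with LPS, against 5.27 to 5.82 without stimulation in Nur77-KO BMM (adjusted p = 0.0056). Ackr4 was detected on 2 of those 3 unstimulated arrays and on none with LPS, so near the detection limit that no fold can be given. With IL-4 against no stimulation and between the genotypes none of the 6 was called. Between LPS and IL-4 only Cxcr5, a receptor of B-cell follicles, was called, higher with LPS in Nur77-KO BMM (at least 1.06-fold, adjusted p = 0.0473), and it was detected on 1 of these 3 LPS arrays and on none of the IL-4 arrays.

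Many ligands of these receptors changed with LPS. Of 18 listed ligands, 15 were tested, of which LPS raised 9 and lowered 1 in Nur77-KO BMM, and raised 10 and lowered 1 in WT BMM. Of all genes tested LPS raised 14.1% and lowered 23.7% in Nur77-KO BMM, and raised 15.5% and lowered 24.3% in WT cells. The median log2 fold change of the ligands was 1.73 in Nur77-KO BMM and 1.32 in WT cells, where the median over all genes was -0.08 in Nur77-KO BMM and -0.06 in WT cells. With genes that only one state detected set to their bounds, and 1 gene below detection in both states left out, the medians were 1.77 in Nur77-KO BMM and 1.75 in WT cells. Ccl5, a ligand of Ccr1 and Ccr3, read 14.99 to 15.08 with LPS, against 7.52 to 7.84 without stimulation in Nur77-KO BMM (log2 fold change 7.39, adjusted p = 0.000287). In WT BMM it read 15.09 to 15.19 with LPS, against 6.31 to 7.03 without stimulation (8.55, adjusted p = 6.61e-05). Ccl19, a ligand of Ccr7, was not detected without stimulation and was detected on all 6 LPS arrays (6.03 to 7.30 in Nur77-KO BMM and 5.84 to 6.24 in WT cells). The Ccr2 ligands Ccl2 and Ccl7 were also called higher with LPS, Ccl2 by 4.05 in Nur77-KO BMM and 3.70 in WT cells, and Ccl7 by 3.06 in Nur77-KO BMM and 3.50 in WT cells. Ccl12, another ligand of Ccr2, rose by 6.25 in Nur77-KO BMM and 5.77 in WT cells. Ccl3, a ligand of Ccr1, reached 15.51 on all 3 Nur77-KO LPS arrays, the top of the array scale after quantile normalization, so its level there is a lower bound.

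With IL-4, 4 of the 15 ligands tested, Ccl7, Ccl8, Ccl12 and Ccl24, were called higher in both genotypes and 0 lower. Of all genes tested 3.12% were called higher in Nur77-KO BMM and 3.68% in WT cells. Of these, Ccl7 and Ccl12 are ligands of Ccr2. Ccl24, an eosinophil-attracting ligand of Ccr3, was detected on all 6 IL-4 arrays (7.60 to 8.05 in Nur77-KO BMM and 7.72 to 8.09 in WT BMM) and on no other array. It was at least 5.43-fold higher with IL-4 than without stimulation in Nur77-KO BMM (adjusted p = 5.87e-07) and at least 5.50-fold higher in WT cells (adjusted p = 7.9e-08). Ccl8 rose by 3.33 in Nur77-KO BMM and 4.30 in WT cells, where 2 of 3 unstimulated WT arrays detected it. Rarres2, which encodes chemerin, the ligand of Ccrl2, was lower with LPS in WT BMM (-0.73, adjusted p = 0.0485, detected on 1 of 3 LPS arrays) and read -0.55 in Nur77-KO BMM (adjusted p = 0.141).

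Between the genotypes no ligand was called in the fit over all arrays. Whether a ligand would be called without the arrays that stood apart was not tested. Cxcl12, the ligand of Cxcr4, read 9.54 to 9.73 in unstimulated Nur77-KO BMM, against 6.67 to 7.39 in unstimulated WT BMM (log2 fold change 2.58, adjusted p = 0.634). These groups did not overlap, but how many of all genes separate them in this way was not counted. The receptor of Cxcl12, Cxcr4, differed by 0.03. The stromal and neutrophil markers given above moved with the same groups, and their part in the Cxcl12 difference was not tested. With LPS, Cxcl12 ranged from 5.10 to 9.21 over the Nur77-KO arrays, where replicate 1 lacked the Y-linked signal as described. Ccl8 was at 7.33 to 7.61 in unstimulated Nur77-KO BMM, against 5.36 to 6.42 in unstimulated WT BMM (1.44, adjusted p = 0.129). Cx3cl1, the ligand of Cx3cr1, was detected on 12 of 18 arrays and had a log2 fold change of 1.05 with LPS in Nur77-KO BMM (adjusted p = 0.198) and 1.12 in WT cells (adjusted p = 0.166).

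**Figure D3:**
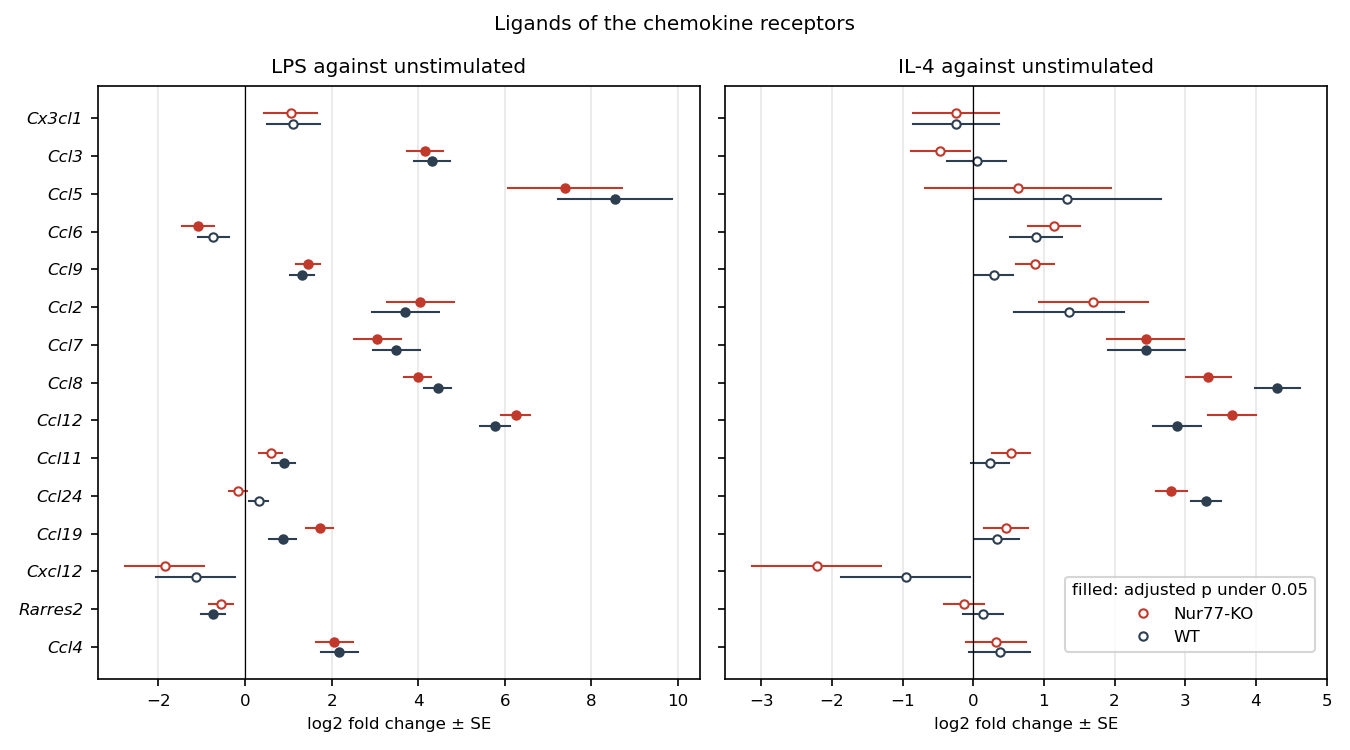
Log2 fold changes against unstimulated cells (horizontal axis, with SE) of the 15 ligands tested (rows), with LPS on the left and IL-4 on the right, for Nur77-KO BMM (red) and WT BMM (dark blue). Filled points were called at an adjusted p under 0.05. Ccl5 and Ccl12 rise with LPS by more than 5 log2 units in both genotypes, the rise of Ccl3 is a lower bound, and Ccl24 is called with IL-4, where its fitted value is no measure of size.

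Genes that carry the receptors' signal were called with LPS in both directions. Of 35 listed genes, 31 were tested, of which LPS raised 10 and lowered 8 in Nur77-KO BMM, and raised 11 and lowered 8 in WT BMM, beside 37.8% of all genes called in Nur77-KO BMM and 39.8% in WT cells. The median log2 fold change of the list was 0.06 in Nur77-KO BMM and 0.12 in WT cells, where the medians over all genes are those given for the ligands. With bounds it was 0.08 in Nur77-KO BMM and 0.14 in WT cells. Rac2, a GTPase of leukocyte migration, rose by 1.61 in Nur77-KO BMM and 2.13 in WT cells, and Prex1, an exchange factor for Rac proteins, rose by 1.76 in Nur77-KO BMM and 1.49 in WT cells. The adaptor Arrb1, which takes part in receptor internalization, changed by -1.85 in Nur77-KO BMM (adjusted p = 1.5e-06) and by -1.99 in WT BMM (adjusted p = 5.71e-07), with 2 of 3 LPS arrays of each genotype detecting it. Rgs10, a brake on G-protein signalling, changed by -2.14 in Nur77-KO BMM and -2.30 in WT cells, and Plcb2, a phospholipase, by -2.12 in Nur77-KO BMM and -2.01 in WT cells. The opposite direction was seen for Rgs1, another such brake, which rose by 2.77 in Nur77-KO BMM (adjusted p = 7.8e-06) and 1.06 in WT BMM (adjusted p = 0.0218). With IL-4, Gng2, a G-protein subunit, was called lower in both genotypes (-0.91 in Nur77-KO BMM and -1.20 in WT cells), and Rgs2, another brake, was called lower in WT BMM (at least 2.04-fold, adjusted p = 0.0013). No IL-4 array of either genotype detected Rgs2, and in Nur77-KO BMM its adjusted p was 0.586. None of the 31 genes was called between the genotypes.

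The genes whose pattern over the 18 arrays was most like that of a receptor were found by Pearson's r across arrays, as a description with no test, since arrays of one group share their treatment. For Ccrl2 these were Mfsd7a (r = 0.996), Peli1 (r = 0.991) and Tnip1 (r = 0.991). For Cxcr4 they were Fam214a (r = 0.991), Acot13 (r = 0.99) and Arhgap18 (r = 0.99). For Cx3cr1 the likeness was looser, with Sirpb1a (r = 0.878), Nxt2 (r = 0.85) and Tm6sf1 (r = 0.846) the closest. On 12 of the 18 arrays Cx3cr1 was not detected, so its r rests on the 6 unstimulated arrays against background.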

How the data were processed

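The authors deposited bead intensity and a detection p-value per probe from GenomeStudio 2011.1, and a table of log2 intensity. The authors' log2 values come from limma 3.10.2 (R 2.14.0), in which control probes set the normexp background and arrays were quantile-normalized before the log. The deposited log2 values were used, and detection came from the deposited p-values. Normalizing the intensities anew changed no value by more than 0.06. The arrays hold 45281 probes, of which 34885 carry 1 gene symbol in the platform annotation, 18 carry several and 10378 are not listed. Detected probes per array numbered 11829 to 16283, median intensity was 124 to 198, and array number limits the precision. Of all probes, 23007 were detected on at least 1 of 18 arrays. Of those with 1 gene symbol, 1 per gene, chosen by mean level, entered the fit (12417 genes).

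A mean per group was fitted with limma 3.58.1 in R 4.3.3 (12 residual degrees of freedom, prior 3.65), with Benjamini-Hochberg adjustment within each comparison, two-sided, called at 0.05, and checked on simulated data. Bounds use the mean of each array's lowest detected log2 signal. The receptors and gene lists were chosen with earlier results of these data known. Genes named are all 7 receptors, up to 4 called members of each list and direction, direct ligands, and the 3 genes most like each receptor; Cxcr3, Gpr1 and Ccl8 between the genotypes were picked after their values were seen. The labels tie replicate numbers to no mouse or batch, and the numbers were not used as pairs.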

Additional observations from a re-analysis of the deposited data

Results flagged for a closer look

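Cx3cr1 passed a test of the change in its genotype difference between states, but with either stimulus the probe was below detection in both genotypes, so the values restate the unstimulated difference against background and give no genotype difference with LPS or IL-4. The fitted genotype difference was 2.35 log2 units less negative with LPS than without stimulation (SE 0.31, 95% interval 1.69 to 3.02, adjusted p = 0.0166 by limma), where 0.0161% of all genes were called. It was 2.49 less negative with IL-4 than without stimulation (SE 0.31, 95% interval 1.83 to 3.15, adjusted p = 0.00816), where 0.00805% of all genes were called. Both values share the unstimulated arrays, and neither passed after median or cyclic loess normalization. Leaving out any one of the 3 unstimulated WT arrays, replicate 2 or 3 of the unstimulated Nur77-KO arrays or replicate 1 of the WT LPS arrays ended the LPS call, and leaving out replicate 3 of the unstimulated Nur77-KO arrays ended the IL-4 call. No group has more than 3 arrays, so single arrays were not screened as outliers.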

How the results depend on the processing

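The call of Cx3cr1 between the genotypes in unstimulated cells held in all 35 alternatives, from -2.56 to -1.20, the smallest without background correction. Of 875 values of single receptors under alternatives, 843 kept direction and call, 13 lost the call, 3 gained it and 16 changed sign.

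Median normalization put the median of all genes at 0.47 between the genotypes without stimulation and at -0.46 with LPS in Nur77-KO BMM. Under it 1 receptor was called with IL-4 in WT BMM and 0 for either change of the genotype difference, and Cx3cr1 read -1.93 between the genotypes. Cyclic loess gave 0 for both changes of the genotype difference and 0.0071 for that of Cxcr4 with IL-4. Fits of only the groups compared called 2 receptors between the genotypes without stimulation and 0 for the change with LPS. The thresholds of the methods (unadjusted p under 0.05, fold 1.4) also called 2, and so did the fit without 4 arrays, chosen after the data were seen. Slide as a fixed block gave 0 for the change with LPS and put Cxcr4 between the genotypes with IL-4 at -0.053, without the 2 Nur77-KO arrays it was -0.086, and without the 4 arrays its change with IL-4 was 0.074. Leaving out 1 array gave 0 to 1 for both changes of the genotype difference, Cxcr4 between the genotypes at -0.069 to 0.098 without stimulation and -0.086 to 0.22 with IL-4, and changes of the genotype difference with IL-4 of -0.12 to 0.18 (Cxcr4) and -0.55 to 0.026 (Ccrl2).

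With the replicate number as a block, 1 receptor was called between the genotypes without stimulation, and Cx3cr1 had an adjusted p of 6.37e-05. The block called 3 receptors between LPS and IL-4 in WT BMM, adding Cx3cr1 (adjusted p = 0.0425 with the block and 0.0764 without it), which neither group detected. It changed no other receptor's call, and for 11 of 18 arrays the best correlated array bore the same number. Deviations from the group means correlated at a mean r of 0.058 for arrays of the same number, with 14 of 45 such pairs over 0.1, and at -0.020 otherwise, so whether the numbers pair arrays is not settled.

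Over all alternatives, genes called between the genotypes were 5 to 485 without stimulation (13 reported), 0 to 775 with LPS (24) and 0 to 402 with IL-4 (5). Those with IL-4 against no stimulation were 102 to 1560 in Nur77-KO BMM (689) and 70 to 2041 in WT BMM (839). Those with LPS were 3627 to 7621 in Nur77-KO BMM (4698) and 1997 to 8117 in WT BMM (4944). Between the stimuli they were 1845 to 7241 in Nur77-KO BMM (4566) and 1652 to 7733 in WT BMM (4773). Receptors near background can be bounded only from above.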
